A study of Mus musculus with 9 samples.

Results

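The genes described here are the BTG and Tob antiproliferative genes Btg1, Btg2, Btg3, Tob1 and Tob2, 5 of the 24060 genes listed in the expression table, taken by gene symbol alone. RNA was measured in 9 libraries of activated R7 CD8 T cells, 3 per clone, and the clones are named R7-I, R7-II and R7-III. The clones come from transnuclear mice on a BALB/c background, each line founded by the nucleus of 1 CD8 T cell that recognises the ROP7 peptide of Toxoplasma gondii, so that each clone is 1 receptor in 1 mouse line. Splenocytes of all 3 lines were cultured overnight in IL-2 (10 ng/ml) together with the ROP7 peptide at 10 µM before sorting of CD3+ CD8+ H-2Ld-Rop7+ cells. The unstimulated cells were not analysed here. The submitters rank the affinity of the receptors for the peptide as R7-I, then R7-III, then R7-II. By a membrane-anchored adhesion measurement, the paper reports similar affinities for R7-I and R7-III and a lower one for R7-II. For the self-reactivity of the receptors the submitters give the order R7-III, then R7-I, then R7-II. With 1 line per clone, receptor and mouse line cannot be told apart. The libraries are labelled biological replicates, but nothing says whether they came from separate mice or cultures, so that p-values measure the spread between these samples.

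BTG and Tob proteins share an N-terminal domain that holds the deadenylases Cnot7 and Cnot8 of the CCR4-NOT complex, which shortens the poly(A) tail of messenger RNAs and so leads to their decay. Tob1 and Tob2 also bind the poly(A)-binding protein Pabpc1 through their C-terminal part. In T cells, Btg1 and Btg2 are known for keeping naive cells quiescent, Tob1 for restraining activation, and Btg2 as a target gene of p53. Btg4, the remaining gene of the family, which acts in oocytes, was listed at 0 TPM in all 9 libraries.

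The 250 bases upstream of the annotated start of Btg1, Btg2, Tob1 and Tob2 are shown because the first 3 of these genes were higher in R7-II than in either other clone and Tob2 was not. They are from RefSeq on GRCm38.p6 (the build of mm10), each 5′ to 3′ on its own strand, for Btg1 chr10:96616751-96617000 on the plus strand, for Btg2 chr1:134079156-134079405 on the minus strand, for Tob1 chr11:94211204-94211453 on the plus strand and for Tob2 chr15:81858327-81858576 on the minus strand. Capitals mark, on either strand, the cAMP response element core TGACG or the full element TGACGTCA that contains it, the forkhead motif TGTTTAC and the motif CCAAT.
Btg1: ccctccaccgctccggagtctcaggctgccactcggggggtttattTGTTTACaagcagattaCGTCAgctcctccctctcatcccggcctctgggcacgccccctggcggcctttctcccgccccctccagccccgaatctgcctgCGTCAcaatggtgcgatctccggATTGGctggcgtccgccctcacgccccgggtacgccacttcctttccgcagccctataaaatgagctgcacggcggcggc
Btg2: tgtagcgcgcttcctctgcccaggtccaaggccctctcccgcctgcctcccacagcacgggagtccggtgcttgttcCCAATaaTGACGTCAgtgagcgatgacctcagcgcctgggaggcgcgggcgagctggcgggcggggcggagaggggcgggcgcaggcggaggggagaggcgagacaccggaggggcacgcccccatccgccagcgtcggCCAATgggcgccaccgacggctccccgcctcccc
Tob1: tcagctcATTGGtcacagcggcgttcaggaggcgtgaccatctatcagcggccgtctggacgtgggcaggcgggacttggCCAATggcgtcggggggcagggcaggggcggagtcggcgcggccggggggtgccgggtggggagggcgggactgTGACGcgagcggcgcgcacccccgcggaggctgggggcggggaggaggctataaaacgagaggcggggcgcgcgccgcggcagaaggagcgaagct
Tob2: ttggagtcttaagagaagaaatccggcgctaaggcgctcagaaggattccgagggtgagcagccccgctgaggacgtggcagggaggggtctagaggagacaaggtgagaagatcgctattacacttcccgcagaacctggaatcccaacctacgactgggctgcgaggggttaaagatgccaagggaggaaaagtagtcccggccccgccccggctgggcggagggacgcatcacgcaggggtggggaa

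The Btg2 window held the full element TGACGTCA, which begins 166 bases before the start and stood in 1.55% of 32851 promoter windows of this length, counted on both strands like every share here. The core TGACG stood in the windows of Btg1, Btg2 and Tob1 and in 17.8% of all windows, and the copies in Btg2 lie inside its full element. CCAAT stood in the same 3 windows and in 33.8% of all, and TGTTTAC stood in the Btg1 window and in 3.17% of all. CCAAT also stood in both windows of Btg3, which are not shown. The Tob2 window held none of these 4 motifs, and shared with the other 3 windows shown the GC box GGGCGG, which stood in 32.7% of all windows. CACCC stood in the Tob1 and Tob2 windows and in 52.0% of all, and TATAAA stood in the Btg1 and Tob1 windows and in 12.4% of all. The E box CACGTG, the NF-kB motif in 1 spelling and the AP-1 motif TGACTCA, in 6.02%, 0.14% and 4.46% of all windows, had no match in these 4 windows. GC content was 65.2% for Btg1, 73.2% for Btg2, 73.6% for Tob1 and 60.4% for Tob2, against a median of 52.4% over all windows. The Tob1 window lies at the start of a RefSeq transcript inside the span of the gene. These are matches of letters only.

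Levels are given in TPM, a measure of transcript abundance that is corrected for gene length and sums to the same amount in each library. Across the 5 genes they ran from 0 for Btg3 to 167 for Btg1. The read depth behind each library is not known from TPM. Between 13738 and 14434 genes had a TPM above 0 per library, libraries of the same clone correlated across genes with Pearson r between 0.992 and 0.997, and no libraries were identical. The 12 T lineage genes checked were present throughout (Cd8a at a mean of 343, 430 and 377 TPM in R7-I, R7-II and R7-III) while Cd4 did not exceed a mean of 0.98 TPM. Changes are differences of mean log2(TPM + 1), tested with limma over the 11330 genes with a maximum TPM above 1 and called at a Benjamini-Hochberg adjusted p below 0.01. All 5 members passed this filter, Btg3 with at least 1 library above 1 TPM in each clone.

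Btg1, Btg2 and Tob1 were higher in R7-II CD8 T cells than in the CD8 T cells of both other clones, by 1.52 to 2.22 times in mean TPM, and Tob2 was nearly level in all 3 clones. The row of Btg3 cannot be read alone, because a second row of the table carries the same coding sequence. Between R7-II and R7-I, 3 of the 5 genes were called, all higher in R7-II, where 56.1% of all genes tested were called, 40.6% as higher and 15.5% as lower in R7-II. Between R7-II and R7-III, 3 of 5 were called, again all higher in R7-II, where 53.6% of all genes were called, 35.6% as higher and 18% as lower in R7-II. Between R7-III and R7-I, 0 of 5 were called by limma at 0.01, where 8.41% of all genes were called, 6.96% as higher and 1.45% as lower in R7-III. At an unadjusted p below 0.05 the rows of Btg1, Btg3 and Tob1 passed there, 3 of 5, where 32.3% of all genes passed, and adjusted over all genes none of the 3 was called. Both comparisons with R7-II share its 3 libraries and are no independent repeats of each other. In bulk RNA, fewer cells of a type and less RNA per cell cannot be told apart.

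**Figure D1:**
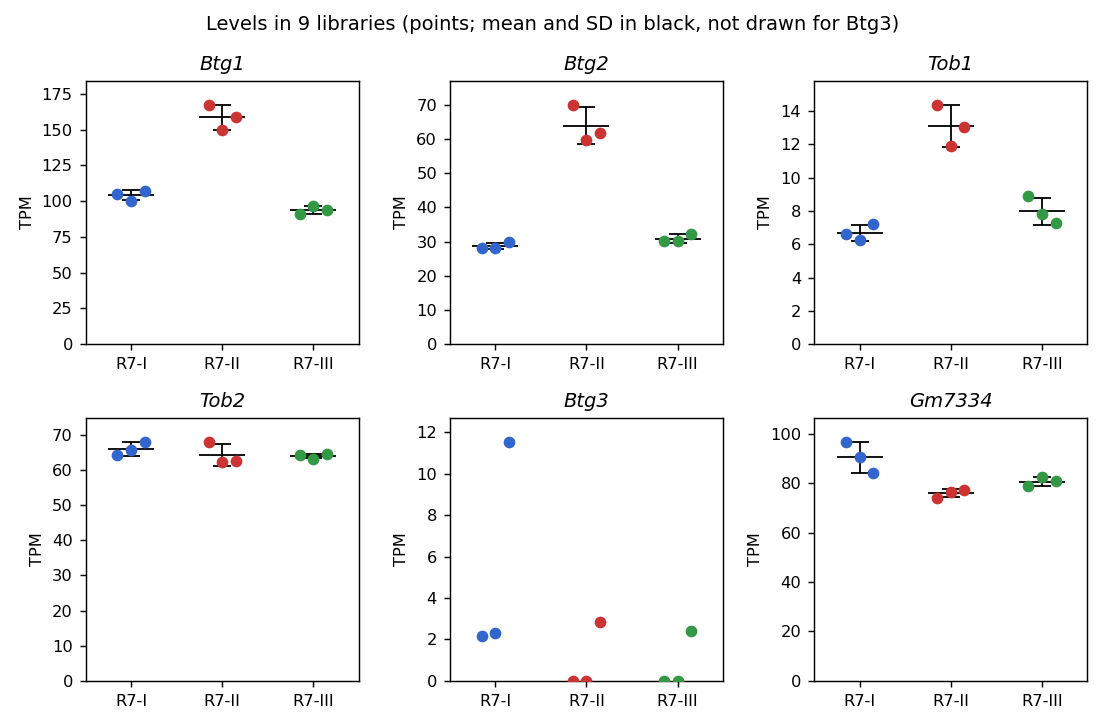
Levels in TPM of the 5 BTG and Tob genes and of Gm7334, the copy of Btg3, in each library (points), with the mean and SD of the 3 libraries of a clone in black, not drawn for Btg3. The 3 R7-II libraries lie above the other 6 for Btg1, Btg2 and Tob1, the clones overlap for Tob2, and Btg3 is at 0 in 4 libraries.

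Btg1 (chr10:96617001-96622813 on the plus strand) was the most abundant of the 5 genes. Its levels were 105, 100.4 and 107 TPM in the R7-I libraries, 167, 149.5 and 159 TPM in the R7-II libraries and 90.9, 96.9 and 93.6 TPM in the R7-III libraries. All 3 R7-II libraries lay above the other 6, and each R7-I library lay above each R7-III library. The means were 104 ± 3.58, 159 ± 8.87 and 93.8 ± 3.03 TPM (SD, n = 3 each). The log2 fold change for R7-II against R7-I was 0.60 (95% confidence interval 0.50 to 0.70, limma adjusted p = 1.39e-06), larger in size than that of 79.2% of all genes tested. Against R7-III it was 0.75 (0.65 to 0.85, limma adjusted p = 3.18e-07). Between R7-III and R7-I it was -0.15 (-0.25 to -0.05, limma adjusted p = 0.0401) and was not called, although under median-of-ratios scaling, which sets the typical gene level between libraries, it was -0.21 with a limma adjusted p of 0.00439.

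Btg2 (chr1:134074865-134079155 on the minus strand), the p53 target of the family, had the largest change of the genes that were called. It stood at 28.3, 28.3 and 29.8 TPM for R7-I, at 70.0, 59.8 and 61.8 TPM for R7-II and at 30.1, 30.3 and 32.3 TPM for R7-III. The lowest R7-II library was above the highest of the other 6, while R7-I and R7-III lay within a few TPM of each other without overlapping. The means were 28.8 ± 0.883, 63.8 ± 5.40 and 30.9 ± 1.25 TPM (SD, n = 3 each). The log2 fold change was 1.12 between R7-II and R7-I (0.99 to 1.25, limma adjusted p = 1.36e-07), larger in size than that of 94.3% of genes. It was 1.02 between R7-II and R7-III (0.89 to 1.15, limma adjusted p = 2.58e-07). Between the other two clones the difference of 0.10 (-0.03 to 0.23, limma adjusted p = 0.285) was not called.

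Tob1 (chr11:94209842-94215495 on the plus strand) was the scarcest of the 4 genes that can be read alone. Its levels were 6.61, 6.25 and 7.20 TPM for R7-I, 14.4, 11.9 and 13.1 TPM for R7-II and 8.87, 7.84 and 7.26 TPM for R7-III. Every R7-II library was again above the other 6, and the R7-III libraries lay just above those of R7-I. The means were 6.69 ± 0.480, 13.1 ± 1.25 and 7.99 ± 0.815 TPM (SD, n = 3 each). The log2 fold change was 0.87 between R7-II and R7-I (0.67 to 1.07, limma adjusted p = 1.23e-05) and 0.65 when compared with R7-III (0.45 to 0.85, limma adjusted p = 1.08e-04). Between R7-III and R7-I it was 0.22 (0.02 to 0.43, limma adjusted p = 0.116) and was not called.

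Tob2 (chr15:81848270-81858326 on the minus strand), the closest relative of Tob1, had 64.2, 65.6 and 68.0 TPM for R7-I, 67.9, 62.3 and 62.5 TPM for R7-II and 64.2, 63.2 and 64.4 TPM for R7-III. The libraries of the clones overlapped in every comparison, and the means were 65.9 ± 1.93, 64.2 ± 3.19 and 63.9 ± 0.660 TPM (SD, n = 3 each). The log2 fold change was -0.04 between R7-II and R7-I (-0.13 to 0.05, limma adjusted p = 0.440), smaller in size than that of all but 7.36% of genes. It was 0.01 between R7-II and R7-III (-0.09 to 0.10, limma adjusted p = 0.903) and -0.04 between R7-III and R7-I (-0.13 to 0.05, limma adjusted p = 0.513). This near-level pattern holds on the TPM scale, where the median gene was itself higher in R7-II, by 0.17 than in R7-I and by 0.12 than in R7-III. Of the genes called against R7-I 72.4% were higher in R7-II, or 46.2% under median-of-ratios scaling, and of those called against R7-III 66.4%, or 47.0%. Under median-of-ratios scaling, Tob2 was called as lower in R7-II, with a log2 fold change of -0.22 against R7-I (limma adjusted p = 1.54e-04) and of -0.13 against R7-III (limma adjusted p = 0.00571). On that scale Btg1, Btg2 and Tob1 were still called as higher in R7-II, with log2 fold changes of 0.41, 0.94 and 0.70 against R7-I and of 0.62, 0.89 and 0.53 against R7-III.

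**Figure D2:**
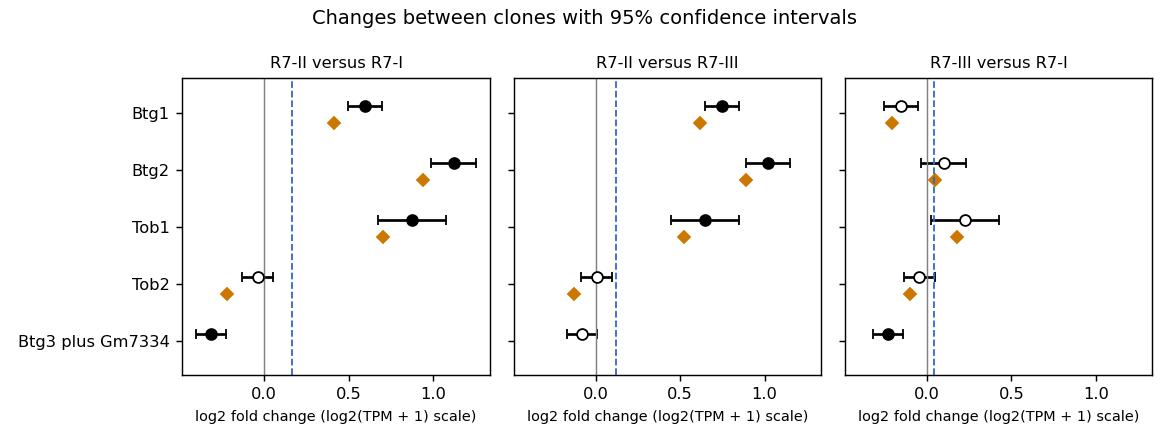
Log2 fold changes on the log2(TPM + 1) scale with 95% confidence intervals (bars) for each pair of clones, filled circles where called by limma at an adjusted p below 0.01, orange diamonds for the value under median-of-ratios scaling, and a dashed line at the median of all genes tested. Btg1, Btg2 and Tob1 lie right of the dashed line in both comparisons with R7-II under either scaling, whereas Tob2 lies at 0 on the TPM scale and left of it after scaling.

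Without a model across genes, the exact permutation test of the F statistic over the 3 clones gave p = 0.00357 for Btg1, for Btg2 and for Tob1, the smallest p that the 1680 ways of dealing 9 libraries into the clones allow. For Tob2 the same exact test gave p = 0.536. Between any 2 clones an exact two-sided permutation test of 3 against 3 libraries cannot go below 0.1, and it gave 0.1 for Btg1, Btg2 and Tob1 in each of the 3 comparisons. The libraries of these 3 genes did not overlap in any comparison, which held for 71.2% of all genes between R7-II and R7-I, for 70.6% between R7-II and R7-III and for 41.9% between R7-III and R7-I.

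The order of the clones differed between the genes. For Btg1 it was R7-II, R7-I, R7-III, and for Btg2 and Tob1 it was R7-II, R7-III, R7-I. In each of these orders the step from R7-II to the next clone was called and the step between R7-I and R7-III was not, on the TPM scale. For Tob2 no neighbours in the order differed beyond their spread.

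Btg3 was listed at 2.16, 2.30 and 11.5 TPM for R7-I, at 0, 0 and 2.83 TPM for R7-II and at 0, 0 and 2.39 TPM for R7-III. The highest value of each clone was in its replicate 3, and the clones overlapped. The coding sequence of Btg3, which lies at chr16:78359860-78377181 on the minus strand, is found letter for letter in Gm7334, a transcribed pseudogene at chr17:50698525-50699892, with 756 of 756 bases identical in the GENCODE M21 transcripts of GRCm38. The first 120 coding bases are shown as a stretch in which a read cannot tell the genes apart, with the start codon in capitals.
Btg3 and Gm7334: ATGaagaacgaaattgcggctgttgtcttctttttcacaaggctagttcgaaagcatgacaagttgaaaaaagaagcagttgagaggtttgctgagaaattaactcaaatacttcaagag
Of the 1315 windows of 100 bases (the read length) in the 1414-base Btg3 transcript, 657 occur in Gm7334, and these are all 657 windows of the coding part. In these GENCODE transcripts, reads that lie wholly in the coding part fit both genes. Only those that reach into the untranslated ends belong to Btg3 alone there. The RefSeq span of Gm7334 is 1368 bases, and the TPM values rest on RefSeq genes. Whether the bases of Gm7334 beyond these 756 match the untranslated ends of Btg3 was not tested.

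Gm7334 was listed at 96.7, 90.5 and 84.0 TPM in R7-I, at 74.2, 76.6 and 77.3 TPM in R7-II and at 78.7, 82.5 and 80.7 TPM in R7-III. Within R7-I the library with the highest Btg3 value had the lowest Gm7334 value. In R7-II, replicate 3 had the highest value of both rows. The sum of both rows, formed after these values were seen, had an SD of 3.05 TPM in R7-I where Gm7334 alone had 6.37 TPM. In R7-II and R7-III the SD of Gm7334 alone was the smaller, at 1.63 and 1.87 TPM. Summed, both rows came to 95.8 ± 3.05 TPM for R7-I, 76.9 ± 2.98 TPM for R7-II and 81.4 ± 2.36 TPM for R7-III (SD, n = 3 each). The sum was lower in R7-II than R7-I by a log2 fold change of -0.31 (-0.40 to -0.22, limma adjusted p = 5.50e-05) and lower in R7-III than R7-I by -0.23 (-0.32 to -0.14, limma adjusted p = 0.00310), while R7-II and R7-III were not called apart (-0.08, limma adjusted p = 0.0972). The sum was thus called between R7-I and each other clone. For the row of Btg3 alone, the log2 fold change between R7-II and R7-I was -1.70 with an interval of -3.21 to -0.19 (limma adjusted p = 0.0457), and it was not called. Nor was it called between R7-III and R7-I (-1.76, limma adjusted p = 0.10) or between R7-II and R7-III (0.06, limma adjusted p = 0.945). How the sum divides between the gene and the pseudogene was not tested. TPM is corrected for length, so where the transcripts differ in length the sum itself depends on how shared reads were divided. The same holds for the shares of the family with Gm7334 added, given below. Of the other members, Btg1 shared 28 of 5176 such windows with the gene Gm14519, which is no row of the table, and Btg2, Tob1 and Tob2 shared none.

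**Figure D3:**
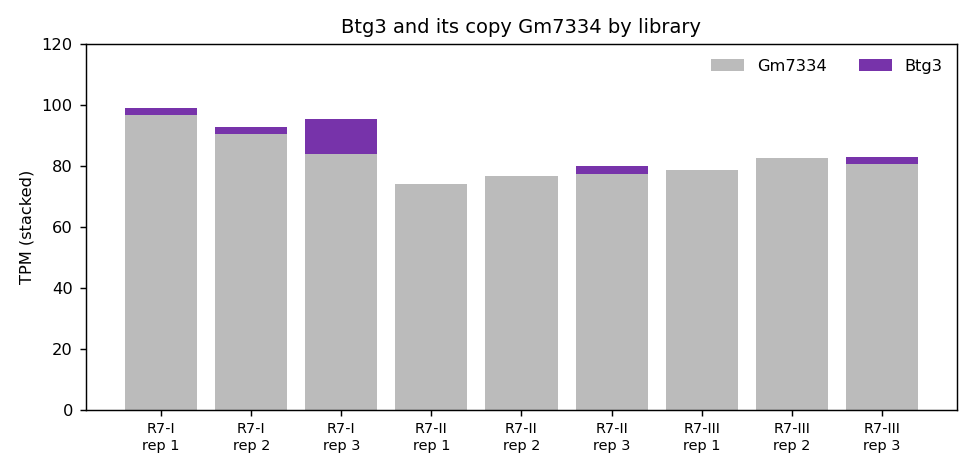
Stacked TPM of Gm7334 (grey) and Btg3 (purple) in each of the 9 libraries. The purple part varies from 0 to 11.5 TPM, while the whole bar lies between 92.8 and 98.9 TPM in R7-I and between 74.2 and 83.1 TPM in the other clones.

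The make-up of the family differed between the clones. The summed level of the 5 genes was 211 ± 11.2 TPM for R7-I, 301 ± 18.1 TPM for R7-II and 197 ± 3.06 TPM for R7-III (SD, n = 3 each). Btg2 made up 13.6 ± 0.315% of this sum in R7-I, 21.2 ± 0.629% in R7-II and 15.6 ± 0.466% in R7-III. The share of Tob2 ran the other way, with 31.3 ± 1.01%, 21.4 ± 0.537% and 32.4 ± 0.637%. Btg1 was the largest part in every clone, with 49.5 ± 1.52%, 52.7 ± 0.384% and 47.5 ± 1.2%. This sum takes the Btg3 row as listed. With the row of the same coding sequence, Gm7334, added to Btg3, the sums were 301 ± 7.41, 377 ± 16.8 and 278 ± 4.56 TPM. Btg3 and Gm7334 together then made up 31.8 ± 0.797%, 20.5 ± 1.41% and 29.3 ± 0.379%, more than Tob2 in each clone by the means. The shares were then 9.54 ± 0.195%, 16.9 ± 0.734% and 11.1 ± 0.375% for Btg2, and 21.9 ± 0.636%, 17.1 ± 0.379% and 23.0 ± 0.522% for Tob2. Within a library, where no scaling between libraries enters, Tob2 exceeded Tob1 by a ratio of 9.88 ± 0.552 in R7-I, 4.92 ± 0.281 in R7-II and 8.05 ± 0.813 in R7-III. The ratio of Btg1 to Btg2 was 3.63 ± 0.0897, 2.49 ± 0.0910 and 3.04 ± 0.154. Both ratios were lowest in R7-II, in all 3 of its libraries.

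The partners of the family are described next. For their counts, 40.6% of all genes were called as higher and 15.5% as lower in R7-II than R7-I. Against R7-III these shares were 35.6% and 18%. Of the 12 CCR4-NOT subunits, 10 were called as higher and 0 as lower in R7-II than R7-I, with a median log2 fold change of 0.26 against 0.17 over all genes, and 7 were higher and 1 lower in R7-II than R7-III (median 0.14 against 0.12). These counts depend on the scaling, and under median-of-ratios scaling 2 were called higher and 2 lower against R7-I and 1 higher and 1 lower against R7-III. Cnot7 and Cnot8 are the paralogous deadenylases that the BTG domain holds. Cnot7 had 69.1 ± 0.379, 67.7 ± 3.59 and 65.8 ± 2.53 TPM in R7-I, R7-II and R7-III, with a log2 fold change of -0.03 between R7-II and R7-I (limma adjusted p = 0.576), or -0.21 with a limma adjusted p of 2.68e-04 under median-of-ratios scaling. Cnot8 had 67.7 ± 1.76, 101 ± 2.13 and 86.0 ± 0.949 TPM, was higher in R7-II than R7-I by 0.57 (limma adjusted p = 2.13e-07), and was the subunit with the largest rise. Cnot1, the scaffold of the complex, was higher in R7-II than R7-I by 0.22 (limma adjusted p = 1.54e-04) and by 0.04 after median-of-ratios scaling, where it was not called. Tnks1bp1, at 10.2 TPM for R7-I and 13.3 TPM for R7-II, was higher by 0.36 (limma adjusted p = 3.60e-04), and under that scaling by 0.18 (limma adjusted p = 0.0107).

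Of 12 poly(A)-binding, deadenylation and decay factors, 7 were called as higher and 1 as lower in R7-II than R7-I. Their median of 0.15 lay just below the 0.17 of all genes, and under median-of-ratios scaling 5 were higher and 3 lower. Against R7-III 5 were higher and 1 lower (median 0.15 against 0.12 over all genes), or 5 and 3 under that scaling. Paip2, an inhibitor of the poly(A)-binding protein, rose most, with 83.8 TPM for R7-I, 173 TPM for R7-II and 100.2 TPM for R7-III and a log2 fold change of 1.04 between R7-II and R7-I (limma adjusted p = 1.01e-07). Pan2, the catalytic subunit of the PAN2-PAN3 deadenylase, was higher by 0.60 (limma adjusted p = 3.27e-05). Pabpc4, a poly(A)-binding protein, was lower in R7-II, with 360 TPM for R7-I, 290 TPM for R7-II and 416 TPM for R7-III. Pabpc1, the partner of Tob1 and Tob2, was the most abundant of the list at 1709, 1887 and 1770 TPM, and its log2 fold change between R7-II and R7-I of 0.14 turned to -0.05 under median-of-ratios scaling.

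Of 12 other reported protein partners, 9 passed the filter, and 1 of these was higher and 4 were lower in R7-II than R7-I (median -0.08), and likewise against R7-III (median -0.05). Under median-of-ratios scaling 1 was higher against each clone, and 6 and 5 were lower. Prmt1, the arginine methyltransferase that Btg1 and Btg2 bind, fell, with 620 ± 15.5 TPM for R7-I, 441 ± 16.9 TPM for R7-II and 582 ± 8.79 TPM for R7-III and a log2 fold change of -0.49 between R7-II and R7-I (limma adjusted p = 5.02e-07). Smad4, the shared signal carrier of the TGF-beta family, was the partner that rose, from 30.8 to 44.5 TPM. The cell cycle genes E2f1 and Chek1 fell by 1.17 and 0.95 on the log2 scale between R7-I and R7-II.

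Gene groups in which BTG and Tob genes are known as targets or partners were then described beside the members, and some genes stand in more than 1 group. Over all genes, 40.6% were called as higher and 15.5% as lower in R7-II than R7-I, and 35.6% and 18% against R7-III. Of the 17 p53 target genes listed 16 were tested, and of these 13 were higher and 1 was lower in R7-II than R7-I, with a median log2 fold change of 0.80 against 0.17 over all genes, and 10 were higher and 2 lower against R7-III (median 0.62). Under median-of-ratios scaling these counts were 11 and 2, and 9 and 2. Trp53inp1, a p53-induced nuclear protein, had 17.7 ± 4.48, 106 ± 18.9 and 18.6 ± 1.62 TPM in R7-I, R7-II and R7-III, and Bbc3, which encodes the cell death protein Puma, had 12.5, 44.5 and 16.8 TPM. The kinase Plk2 fell, from 46.2 TPM in R7-I to 28.2 TPM in R7-II. The change of Btg2 of 1.12 between R7-II and R7-I lay above the median of this group and that of Btg1 of 0.60 below it.

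Of 17 immediate early genes, the group of fast receptor-induced genes in which Btg2 is often counted, 9 were higher and 4 lower in R7-II than R7-I, and 7 were higher and 4 lower against R7-III. Against R7-I their median of 0.18 was close to the 0.17 of all genes, and under median-of-ratios scaling 5 were higher and 5 lower. Against R7-III the median was 0.21 where that of all genes was 0.12, and 7 were higher and 4 lower under that scaling. Fosb and Dusp1 rose most against R7-I, by 1.64 and 1.31 on the log2 scale, and Ier3 and Atf3 fell most, by 1.18 and 1.15. Genes of this group thus moved in both directions.

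Of 15 T cell quiescence genes, 12 were higher and 1 was lower in R7-II than R7-I (median 0.60), and 12 were higher and 0 lower against R7-III (median 0.51). Under median-of-ratios scaling 10 were higher and 1 lower in each. Klf2, a transcription factor of resting T cells, had 9.14, 102 and 9.36 TPM in R7-I, R7-II and R7-III, the largest rise of the group. Txnip, a regulator of glucose uptake, had 40.5, 121 and 42.1 TPM. Slfn2, which is needed for T cell quiescence, fell, from 583 TPM in R7-I to 506 TPM in R7-II.

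The cell cycle genes were split by role. Of the 10 CDK inhibitors and pocket proteins listed 7 were tested, and of these 5 were higher and 0 lower in R7-II than R7-I (median 0.86), and 4 were higher and 1 lower against R7-III (median 0.69). Rbl2, a pocket protein of resting cells, had 13.2, 37.1 and 17.5 TPM in R7-I, R7-II and R7-III, and Cdkn1a, the inhibitor p21, had 63.0 ± 13.6, 128 ± 20.4 and 64.1 ± 1.74 TPM. Of the 12 G1 cyclins and kinases listed 11 were tested, and of these 1 was higher and 9 were lower in R7-II than R7-I (median -0.33), and 0 were higher and 10 lower against R7-III (median -0.60). The E2F factor E2f2 was the one that was higher in R7-II than R7-I, at 1.72 against 0.79 TPM. Against R7-III, at 2.96 TPM, E2f2 was called as lower in R7-II. Ccne1, which encodes cyclin E1, fell from 39.4 TPM in R7-I to 17.3 TPM in R7-II.

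Of 12 S phase genes, 11 were lower in R7-II than R7-I and 12 were lower than in R7-III, and of 12 G2M phase genes 9 and 10 were lower. The median log2 fold changes against R7-I were -0.55 for S phase and -0.91 for G2M phase genes. Rrm2, a subunit of ribonucleotide reductase, had 19.4, 4.74 and 49.1 TPM in R7-I, R7-II and R7-III, and the mitotic kinase Cdk1 had 10.2, 2.09 and 21.4 TPM. In R7-III against R7-I, 6.96% of all genes were called as higher and 1.45% as lower. There 11 of the S phase genes, 6 of the G2M phase genes and 7 of the G1 cyclins and kinases were higher and 0 were lower. Those counts were 7, 6 and 4 under median-of-ratios scaling and 10, 5 and 3 under quantile normalization, again with 0 lower.

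**Figure D4:**
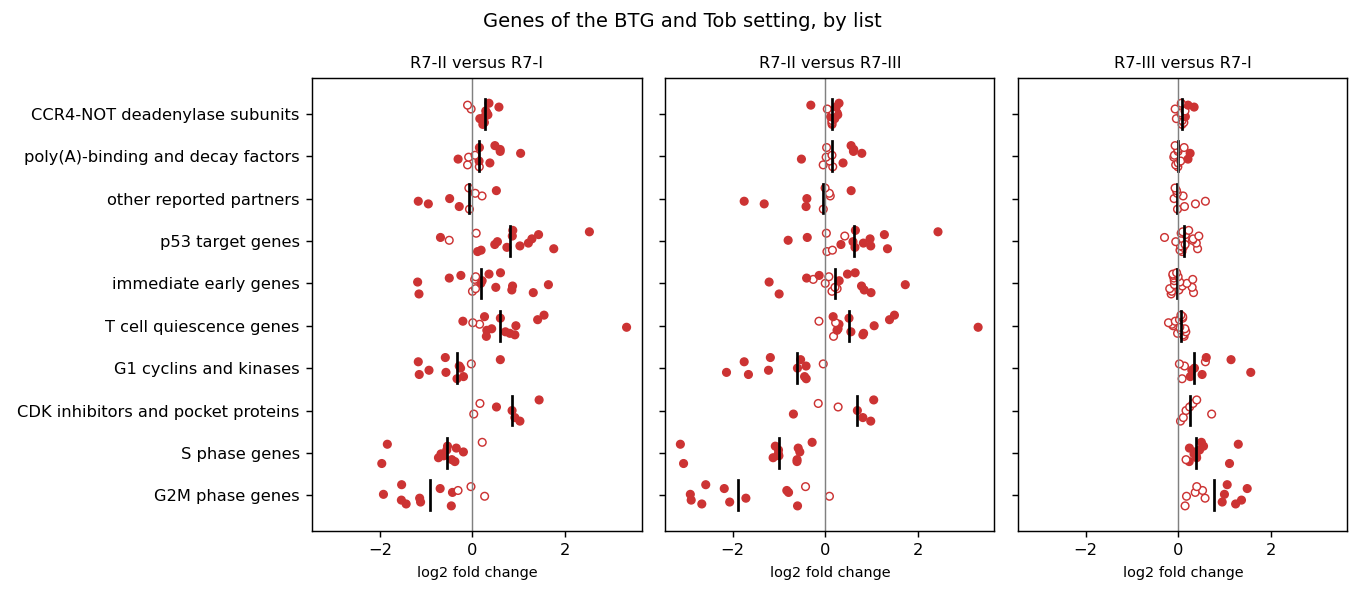
Log2 fold change of each gene tested (points) in the lists of family partners, p53 target, immediate early, quiescence and cell cycle genes, for each pair of clones, filled where called by limma, with the median of each list as a black bar. In the comparisons with R7-II the quiescence, p53 target and CDK inhibitor genes lie mostly to the right of 0 and the S and G2M phase genes to the left.

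Genes whose pattern was most like that of each member were taken by Pearson r of log2(TPM + 1) over the 9 libraries, among 8839 genes with a mean of at least 5 TPM. The libraries of a clone share their source, so that r mostly follows the gap between R7-II and the other clones. For Btg1 these were Tsc22d3 (r = 0.997), which encodes the glucocorticoid-induced leucine zipper protein, Itgae (0.995), which encodes the integrin CD103, and Stau1 (0.994). Their sizes differed, and Itgae had 11.1, 52.6 and 7.14 TPM in R7-I, R7-II and R7-III where Stau1 had 25.9, 32.9 and 24.6 TPM. For Btg2 they were Fam193b (0.999), Sepp1 (0.998) and Ctdsp2 (0.998), and for Tob1 Tmem80 (0.994), Rfx5 (0.992) and Acadsb (0.992). An r above 0.95 was reached by 941 genes for Btg1, by 1675 for Btg2 and by 801 for Tob1. For Tob2 it was reached by 1 gene, Eapp (0.966), ahead of Bag5 (0.896), and for the row of Btg3 by 1 gene, Pmpca (0.965), ahead of Vapa (0.930) and Trub2 (0.929).

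RNA of other cell types also differed between the clones. Beside the counts here, 40.6% of all genes were called as higher in R7-II than R7-I, and 35.6% as higher than in R7-III. The 12 B cell marker genes summed to between 10.3 and 17.6 TPM for R7-I, between 38.7 and 78.4 TPM for R7-II and between 6.23 and 9.62 TPM for R7-III, and 9 of the 9 that passed the filter were called as higher in R7-II against either other clone. None of the 12 was at 0 in every library, and the most abundant, Cd79b, had means of 3.54, 18.8 and 2.23 TPM. The 7 MHC class II genes summed to between 115 and 186 TPM in R7-II and to at most 50.4 TPM in the other clones. Of these, 7 of 7 were called as higher in R7-II against either other clone. Under median-of-ratios scaling, 8 of the 9 B cell genes and 6 of the 7 MHC class II genes were higher than in R7-I. Against R7-III these counts were 9 and 7. Under quantile normalization they were 7 and 6 against R7-I and 9 and 6 against R7-III. The 12 myeloid genes summed to between 107 and 170 TPM in R7-II and to at most 75.9 TPM elsewhere, with 9 of 10 tested higher in R7-II. Against R7-I, 7 of the 10 myeloid genes were called as higher under median-of-ratios scaling and 2 under quantile normalization. Against R7-III 7 and 6 of them were. Cst3 was the most abundant of them at means of 66.1, 79.5 and 64.3 TPM, and made up most of the sum in R7-I and R7-III. In R7-II it ran from 76.0 to 82.2 TPM, beside the list sums of 107 to 170 TPM, and so was a large part there too. Lyz2, a lysozyme of myeloid cells, had means of 0.45, 32.9 and 1.89 TPM and ranged from 13.8 to 56.7 TPM among the R7-II libraries.

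The 4 CD4 T cell genes summed to at most 8.01 TPM and the 4 NK cell genes to at most 0.5 TPM in any library, and Klra8 was at 0 in all. The 6 erythroid genes summed to between 22.2 and 73.2 TPM for R7-I, between 1.25 and 15.1 TPM for R7-II and between 9.03 and 25.5 TPM for R7-III. Of the 4 that were tested, 0 were called in any comparison on the TPM scale. The part of RNA of other cells in the levels of Btg1, Btg2 and Tob1, and in the gene groups that differ in R7-II, was not tested.

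**Figure D5:**
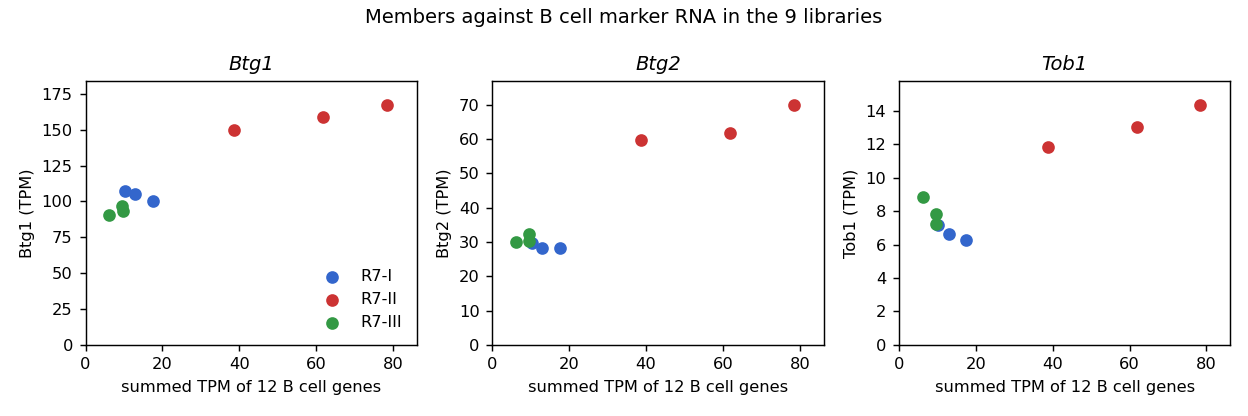
Level of Btg1, Btg2 and Tob1 (TPM, vertical) against the summed TPM of 12 B cell marker genes (horizontal) in each library, coloured by clone. The 3 R7-II libraries stand apart on both axes, at 38.7 to 78.4 TPM of B cell genes, and the other 6 lie at 6.23 to 17.6 TPM.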

How the data were processed

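The authors sequenced poly(A) RNA as 100-base single-end reads without strand, aligned them and estimated gene levels with RSEM 1.2.11 on RefSeq genes of mm10 and deposited TPM values rounded to 2 decimals. The program behind RSEM's alignment step was not given in the sources used here. Counts, which the authors tested with DESeq2 1.8.1, were not used here, and TPM keeps no depth, so limma replaced that test. TPM values of 11330 genes with a maximum above 1 were taken as log2(TPM + 1) and fitted with limma 3.58.1 in R 4.3.3 (eBayes with trend, all 9 libraries in 1 fit, clone as the factor), with p-values adjusted by Benjamini-Hochberg over those genes and a threshold of 0.01. The pseudocount of 1 lessens the log2 fold changes of low genes. The fit was tested on simulated data. Exact permutation tests and sequence searches were run in Python 3.11.15 with numpy 2.4.6, pandas 2.3.3 and Biopython 1.88.

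The members and lists were chosen with earlier results of these data known. Named by rule were the members in every library, Btg4, Cnot1, Cnot7, Cnot8, Prmt1 and Pabpc1, up to 2 genes per list with the largest called rise and up to 2 with the largest called fall between R7-II and R7-I, the 3 genes most like each member, and the most abundant gene of each marker list; where many genes qualified, values were given for some, and 1 gene is not reported here. Gm7334 was named after its values were seen. Gene positions and promoters are from RefSeq on GRCm38.p6. The alternatives were pseudocounts of 0.1 and 5, no filter, a filter of at least 1 TPM in every library, median-of-ratios scaling, quantile normalization, limma without the trend, the replicate number as a block, a threshold of 0.05, a fit without the third clone and leaving out each library in turn.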

Additional observations from a re-analysis of the deposited data

How the results depend on the processing

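Under the 19 alternatives run for them, Btg1, Btg2 and Tob1 stayed called and higher in R7-II in both comparisons, with log2 fold changes against R7-I of 0.41 to 0.64, 0.94 to 1.16 and 0.57 to 0.96. Of 282 values of the members under an alternative, 266 kept their direction and their side of the threshold. The others were these. Under median-of-ratios scaling Tob2 was called as lower in R7-II than R7-I (-0.22) and R7-III (-0.13), and Btg1 as lower in R7-III than in R7-I (-0.21). Under quantile normalization Tob2 was called as lower in R7-II than R7-I (-0.16) and had -0.086 against R7-III, where Btg3 had -0.013. Both scalings level the median gene, and the share of called genes that were higher went from 72.4% to 46.2% and 45.9% for R7-II against R7-I, from 66.4% to 47.0% and 49.3% for R7-II against R7-III, and from 82.8% to 56.6% and 62.6% for R7-III against R7-I. At a threshold of 0.05, Btg3 was called between R7-II and R7-I (-1.70), Btg1 was called between R7-III and R7-I (-0.15), and 2142 genes rather than 953 were called between R7-III and R7-I. Btg3 summed with Gm7334, an alternative chosen after seeing the data, gave -0.31 in R7-II and -0.23 in R7-III against R7-I and -0.081 for R7-II against R7-III. Btg3 had no value under a filter of at least 1 TPM in every library.

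Leaving out each library in turn gave Tob2 between -0.034 and 0.028 for R7-II against R7-III, lowest without R7-II replicate 1 and -0.0022 without R7-III replicate 2. It gave Btg3 between -2.34 and -1.05 for R7-II against R7-I, called without R7-II replicate 3 (adjusted p = 0.00970, limma), and between -0.59 and 0.65 for R7-II against R7-III, below 0 without R7-II replicate 3 or R7-III replicate 1 or 2. Between R7-III and R7-I it left between 422 and 1076 called genes, with 422, 574 and 619 without R7-I replicates 1, 2 and 3 and 487, 462 and 523 without R7-III replicates 1, 2 and 3, and Btg1 was not called in any of these. The replicate block called Btg3 between R7-II and R7-I (-1.70) and between R7-III and R7-I (-1.76) and changed no other call of a member, and its counts of called genes stayed within 1.5 times. Deviations of libraries with the same number correlated with r between -0.0449 and 0.0888, and those with unlike numbers between -0.0948 and 0.0649. Over all genes the numbers thus showed no pairing. A correlation over all genes cannot show whether single genes such as Btg3, highest in replicate 3 of each clone, follow the numbers. Apart from scaling, filters, threshold and the sum as described, the cause of these changes was not tested. The unknown depth limits what the low values of Btg3 and Tob1 can show.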
